A study of Mus musculus with 12 samples.

Results

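The ATF4 response and the genes of amino acid supply are described here as 36 mouse genes, listed by name, out of 29522 genes in the files. They comprise 8 stress regulators, 3 brakes on growth and translation, 7 enzymes of serine synthesis and one-carbon metabolism, 3 enzymes of cysteine and glutathione metabolism, 3 enzymes of asparagine and proline synthesis, 10 amino acid transporters and 2 other targets. They were followed in cultures of wild-type C57BL/6J mouse T helper 17 (Th17) cells, made from naive CD4+ T cells of the spleen. Those cells had been isolated with magnets, grown in RPMI 1640 with the Th17 supplement CytoBox and activated through CD3 and CD28. All 4 groups shared this genotype, strain and culture. The groups were cells given vehicle, ILA (200 uM), GSK805 (0.5 uM) or the 2 compounds together at these doses, each with 3 biological replicates. The abbreviation ILA was taken to mean indole-3-lactic acid, a bacterial product of tryptophan. GSK805 is a synthetic inhibitor of Th17 differentiation. The labels used here state no age, no animal behind each replicate and no length of treatment, and each compound was used at 1 dose.

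Cells sense a shortage of amino acids, damage to the endoplasmic reticulum and other stresses through kinases that phosphorylate the translation factor eIF2alpha. Most translation then slows, while the mRNA of Atf4 is translated more. ATF4 protein binds with C/EBP partners at response elements and raises genes for making and importing amino acids, for charging tRNA and for slowing growth. Activated T cells import large amounts of amino acids and make serine and one-carbon units for nucleotide synthesis, and ATF4 takes part in both. Because ATF4 is controlled at translation and these libraries measure RNA, the level of Atf4 mRNA is not a measure of ATF4 protein.

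The core of the response element, written TGATGNAA or, on the other strand, TTNCATCA, was searched in the RefSeq promoters of GRCm38.p6, which run from 250 bases before to 50 bases after each annotated start. A promoter entry was found for 30 of the 36 genes, and 9 of these 30 held the core: Atf3, Vldlr, Asns, Pycr1, Chac1, Nupr1, Trib3, Slc1a4 and Slc7a11. Slc1a5, Slc7a5, Slc38a1, Slc7a3, Cth and Eif4ebp1 had no entry. Counted by promoter, 9 of 36 held the core (25%), against 1304 of all 32851 promoters (3.97%), and by gene the background was 1219 of 27025 (4.51%). The genes were listed as members of this response, so the difference is a description. Of the 21 genes with an entry that were lower with both compounds than with vehicle, 7 held the core. Of the 9 others 2 did, Slc1a4 and Slc7a11. These 9 were not all tested and found unchanged: Slc7a11 and Cbs were not tested, and Ddit4 was called higher. The stretches shown are those of the 6 tested genes with a core that changed most with both compounds, read 5′ to 3′ along the gene, with the core in capitals.
Atf3, chr1:191183396-191183483, minus strand: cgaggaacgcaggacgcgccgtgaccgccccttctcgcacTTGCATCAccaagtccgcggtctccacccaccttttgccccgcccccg
Vldlr, chr19:27216780-27216867, plus strand: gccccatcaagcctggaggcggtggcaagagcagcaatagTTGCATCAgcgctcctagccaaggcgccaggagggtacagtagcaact
Asns, chr6:7693185-7693272, minus strand: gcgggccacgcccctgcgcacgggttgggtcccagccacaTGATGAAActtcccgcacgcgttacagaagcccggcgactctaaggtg
Pycr1, chr11:120643804-120643891, minus strand: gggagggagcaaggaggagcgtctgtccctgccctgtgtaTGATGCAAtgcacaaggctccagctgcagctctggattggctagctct
Chac1, chr2:119351009-119351096, plus strand: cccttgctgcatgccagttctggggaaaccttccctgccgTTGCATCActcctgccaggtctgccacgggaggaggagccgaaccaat
Nupr1, chr7:126625533-126625620, minus strand: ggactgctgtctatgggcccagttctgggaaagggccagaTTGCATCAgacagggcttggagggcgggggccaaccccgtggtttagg
The core stood on the gene's own strand in Asns and Pycr1 and on the other strand in Atf3, Vldlr, Chac1 and Nupr1. It began 23 bases before the start in Asns, 103 before it in Pycr1, 110 before it in Atf3 and Nupr1, 193 before it in Chac1 and 200 before it at 1 of the annotated starts of Vldlr. A match is a run of letters and was not tested for binding.

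**Figure D1:**
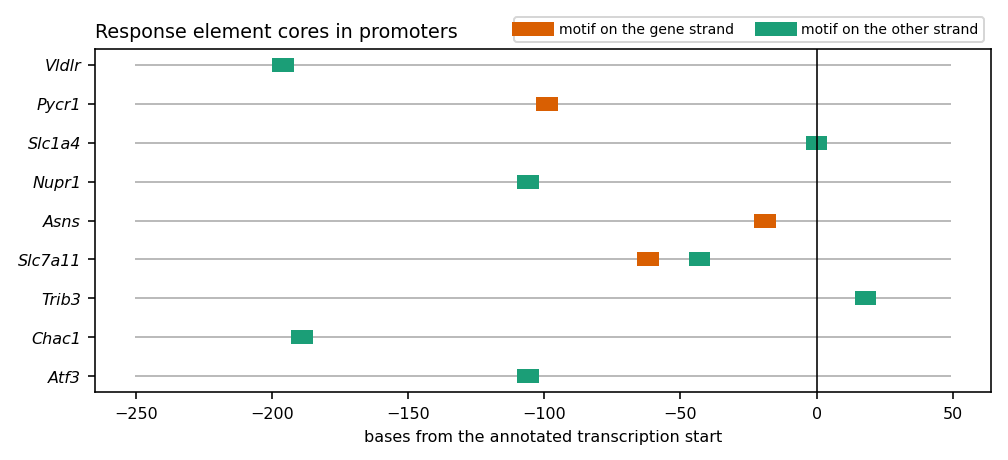
Each line is a promoter from 250 bases before to 50 bases after the annotated transcription start (0 on the x axis, in bases), and each block is a match to the response element core on the gene's strand or the other strand. Slc7a11 has 2 matches, at 66 and 47 bases before the start, and the other 8 genes have 1 each.

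The deposited values are FPKM, reads scaled to gene length and library size, so that levels of different genes can be set side by side. Whole reads recovered from them came to between 17805444 and 23443644 a library. A gene was tested where its mean reached 1 FPKM in at least 1 group, which kept 13511 genes and 34 of the 36. It was called where the adjusted p of the limma fit on log2(FPKM + 1) was under 0.05. Fold changes are on that scale, which understates changes of low genes. Cd3e, Cd4, Trac and Il17a were present in every group, and the highest group mean of Cd8a was 0.22 FPKM. Cd8b1 was higher, with means of 4.06 FPKM with vehicle, 1.27 with ILA, 4.02 with GSK805 and 1.7 with both. Means of Klrd1 in that order were 15.3, 33.7, 10.6 and 17.4 FPKM. The summed level of 6 CD4 T and Th17 markers ran from 1491 to 1799 FPKM with vehicle, from 1008 to 1022 with ILA, from 677 to 717 with GSK805 and from 676 to 740.1 with both, and the group means of Il17a were 756, 159, 109 and 40.1 FPKM in that order. Il17a and Il17f carried the lower sums, while group means of Cd4 were 42.4, 117, 39.7 and 87.8 FPKM and those of Trac 189, 309, 204 and 304, and Cd3e and Cd3d were likewise higher with ILA and with both than with vehicle. The 5 B cell markers in the files summed to 1.62 to 2.88 FPKM over all libraries. The 6 myeloid markers summed to 7.13 to 8.92 FPKM with vehicle, 10.8 to 12.5 with ILA, 7.13 to 7.66 with GSK805 and 9.96 to 12.7 with both. The 5 CD8 T and NK markers summed to 18.2 to 21.5 FPKM with vehicle, 34.2 to 36.9 with ILA, 14.3 to 16.4 with GSK805 and 18.8 to 20.2 with both, most of it Klrd1. The 4 stromal markers summed to 15.3 to 17.3, 29.6 to 31.4, 18 to 18.3 and 29.2 to 30.3 FPKM in the same order, nearly all of it Epcam and Pecam1, with Col1a1 and Col1a2 at or near 0. Their part in the results was not tested. Haemoglobin mRNA stood out in 1 library, with Hbb-bs at 23.3 and Hba-a1 at 18.2 FPKM in ILA replicate 2. Without that library 26 of the 34 genes were again lower with ILA. Fewer cells of a type and less RNA per cell cannot be told apart in such bulk samples.

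Most of the genes were lower with ILA and with both compounds, and fewer with GSK805. With ILA, 26 of the 34 tested genes were lower than with vehicle and 3 were higher (Ddit4, Atf5 and Slc3a2), where 24% of all tested genes were called lower and 33.9% higher. With GSK805, 13 were lower and none higher, against 7.08% and 15.7% of all genes. Slc7a1 was higher with GSK805 at an unadjusted limma p of 0.0121 and was called when reads were tested with voom. With both compounds 27 were lower and 1, Ddit4, was higher, against 20.3% and 31.8%. The median log2 change of the 34 genes was -0.44 with ILA, -0.13 with GSK805 and -0.48 with both, beside 0.064, 0.054 and 0.065 over all 13511 genes. All 3 comparisons use the same vehicle libraries. The 36 genes took a mean of 0.92% of the summed FPKM with vehicle, 0.726% with ILA, 0.916% with GSK805 and 0.732% with both. Scaling changed the balance among all genes. Of the genes called with ILA, 58.6% were higher as deposited, 46.3% after quantile normalization and 40.9% after centring each library on its median, which moved the median change of all genes from 0.064 to -0.071. For GSK805 the shares were 68.9%, 55.9% and 40.3%, and for both compounds 61.1%, 47.8% and 40.2%.

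**Figure D2:**
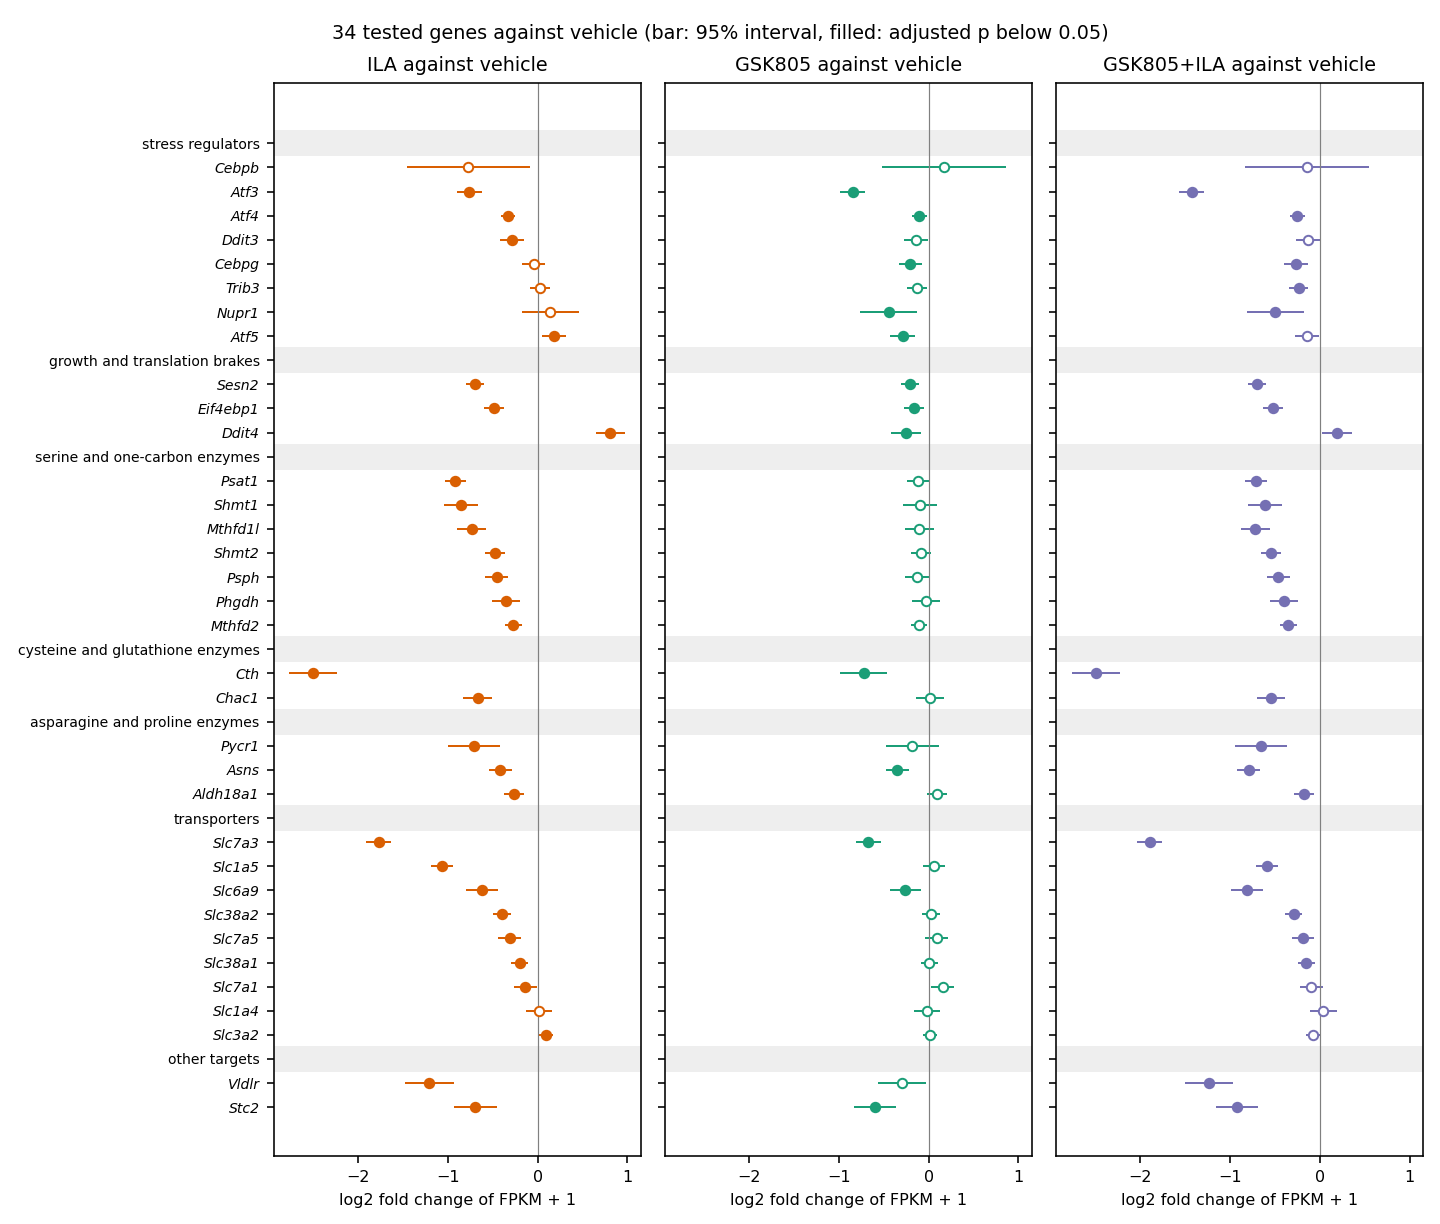
Log2 fold changes of FPKM + 1 against vehicle (x axis) for the 34 tested genes, grouped by role, with ILA, GSK805 and both compounds in separate panels. Bars are 95% intervals and filled points passed an adjusted p of 0.05; the serine and one-carbon enzymes lie left of 0 with filled points in the ILA and combined panels and with open points in the GSK805 panel.

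Among the 8 stress regulators, which are transcription factors and their partners, 3 were lower and 1 higher with ILA, 5 were lower with GSK805, and 5 were lower with both. Atf4, the factor that gives the response its name, stood at 492, 518 and 505 FPKM with vehicle, 398, 416 and 392 with ILA, 462, 477 and 471 with GSK805 and 419, 424 and 431 with both. It was the 77th most abundant of the tested genes with vehicle. Its libraries with ILA, with GSK805 and with both were each all below those with vehicle. Atf4 fell by 1.26-fold with ILA (log2 -0.33, SE 0.032, adjusted p = 4.91e-06) and by 1.19-fold with both (log2 -0.25, adjusted p = 5.58e-05). With GSK805 its log2 change was -0.10 (adjusted p = 0.0388). These calls depended on the scaling: after quantile normalization the log2 change of Atf4 was -0.081 with ILA (adjusted p = 0.087), 0.20 with GSK805 (adjusted p = 0.004) and 0.018 with both (adjusted p = 0.713). With GSK805 Atf4 was called in 11 of 21 alternatives, counting that rise. The call was lost without trend and robust moderation, without a filter and with only the groups compared. It was also lost without GSK805 replicate 1, 2 or 3, vehicle replicate 2 or 3, ILA replicate 1 or GSK805+ILA replicate 2.

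Atf3, a stress-induced repressor downstream of ATF4, whose core is shown above, changed most of the 8 with both compounds. Its values were 18.1, 17.3 and 17.1 FPKM with vehicle, 10.6, 10.2 and 8.95 with ILA, 9.08, 9.7 and 9.04 with GSK805 and 5.73, 6.02 and 5.83 with both. The libraries with both compounds were the lowest, those with vehicle the highest, and those with either compound lay between. Atf3 fell by 1.7-fold with ILA (log2 -0.76, SE 0.059, adjusted p = 7.34e-07), by 1.8-fold with GSK805 (log2 -0.85, adjusted p = 9.86e-06) and by 2.69-fold with both (log2 -1.43, adjusted p = 1e-08). Ddit3 encodes CHOP, a factor of prolonged stress. It stood at 118, 121 and 113 FPKM with vehicle, 90.7, 96.2 and 101 with ILA, 100.01, 105 and 113 with GSK805 and 105, 103 and 113 with both. ILA libraries were all below those with vehicle, and Ddit3 fell by 1.22-fold with ILA (adjusted p = 0.000918), while its log2 change was -0.14 with GSK805 (95% interval -0.26 to -0.02) and -0.13 with both (-0.25 to -0.011), neither called.

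Atf5, a relative of ATF4 that is also controlled at translation, went in opposite directions with the compounds. It averaged 58.3 ± 1.44 FPKM with vehicle, 66.4 ± 3.11 with ILA, 47.6 ± 3.97 with GSK805 and 52.7 ± 1.46 with both (SD, n = 3). It rose with ILA (log2 0.19, adjusted p = 0.0156) and fell with GSK805 (log2 -0.29, adjusted p = 0.00419), and the rise was not called after median centring or without vehicle replicate 3 or ILA replicate 2 (log2 0.05, 0.17 and 0.15). Cebpg, a C/EBP partner of ATF4, fell with GSK805 (log2 -0.21, adjusted p = 0.0199) and with both (log2 -0.27, adjusted p = 0.00164), and its log2 change with ILA was -0.043 (-0.16 to 0.076). Trib3, a pseudokinase that feeds back on ATF4 and CHOP, was called only with both compounds among the comparisons with vehicle (log2 -0.24, adjusted p = 0.001). Its log2 change with GSK805 was just short of a call (-0.13, adjusted p = 0.0536) and was called in 5 of 21 alternatives. With ILA it was 0.025. Nupr1, a small stress-induced chromatin protein, was near the filter at 1.44 ± 0.135 FPKM with vehicle and 0.73 ± 0.0608 with both, where it fell (log2 -0.50, adjusted p = 0.011). Cebpb, a C/EBP factor of stress and inflammation, had the widest spread of the 34 on the log2(FPKM + 1) scale. Its values ran from 11.6 to 24 FPKM with ILA and from 19.6 to 41.7 with both. It was called in none of the 6 comparisons of the reported fit, and its log2 change with ILA was -0.77 (-1.45 to -0.093, adjusted p = 0.051), which 5 of 21 alternatives called.

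The 3 brakes on growth and translation split with ILA. Ddit4, which encodes an inhibitor of the growth kinase complex mTORC1, stood at 80.2, 94.8 and 89.2 FPKM with vehicle, 158, 152 and 154 with ILA, 80.7, 72.4 and 68.3 with GSK805 and 101, 105 and 95.3 with both. The ILA libraries were far above all others and those with both compounds were above those with vehicle, while GSK805 and vehicle overlapped. Ddit4 rose by 1.75-fold with ILA (log2 0.81, SE 0.069, adjusted p = 1.71e-06), fell with GSK805 (log2 -0.25, adjusted p = 0.0232) and rose with both (log2 0.19, adjusted p = 0.0372). The last call was lost after median centring (log2 0.054, adjusted p = 0.56) and without vehicle replicate 1 or 3 or either of replicates 1 and 2 with both compounds (log2 0.13, 0.20, 0.19 and 0.16).

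Sesn2, a leucine sensor that restrains mTORC1, moved the other way. Its values were 63.6, 64.5 and 63.2 FPKM with vehicle, 39, 39.2 and 38.5 with ILA, 53.5, 57.9 and 54.3 with GSK805 and 37.6, 37.9 and 40.8 with both. The libraries with ILA and with both formed 1 low range, well below the other groups. Sesn2 fell by 1.62-fold with ILA (log2 -0.70, SE 0.04, adjusted p = 7.15e-08) and by 1.63-fold with both (log2 -0.70, adjusted p = 9.52e-08), and less with GSK805 (log2 -0.21, adjusted p = 0.00415). Eif4ebp1 encodes a repressor of cap-dependent translation. It stood at 109.6, 114 and 109 FPKM with vehicle, 79, 78.8 and 79.7 with ILA, 94.2, 102 and 99.5 with GSK805 and 77.8, 71.8 and 80.9 with both. All libraries of each treated group were below those with vehicle, and the log2 changes were -0.48 with ILA (adjusted p = 3.88e-06), -0.17 with GSK805 (adjusted p = 0.0213) and -0.53 with both (adjusted p = 2.64e-06).

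**Figure D3:**
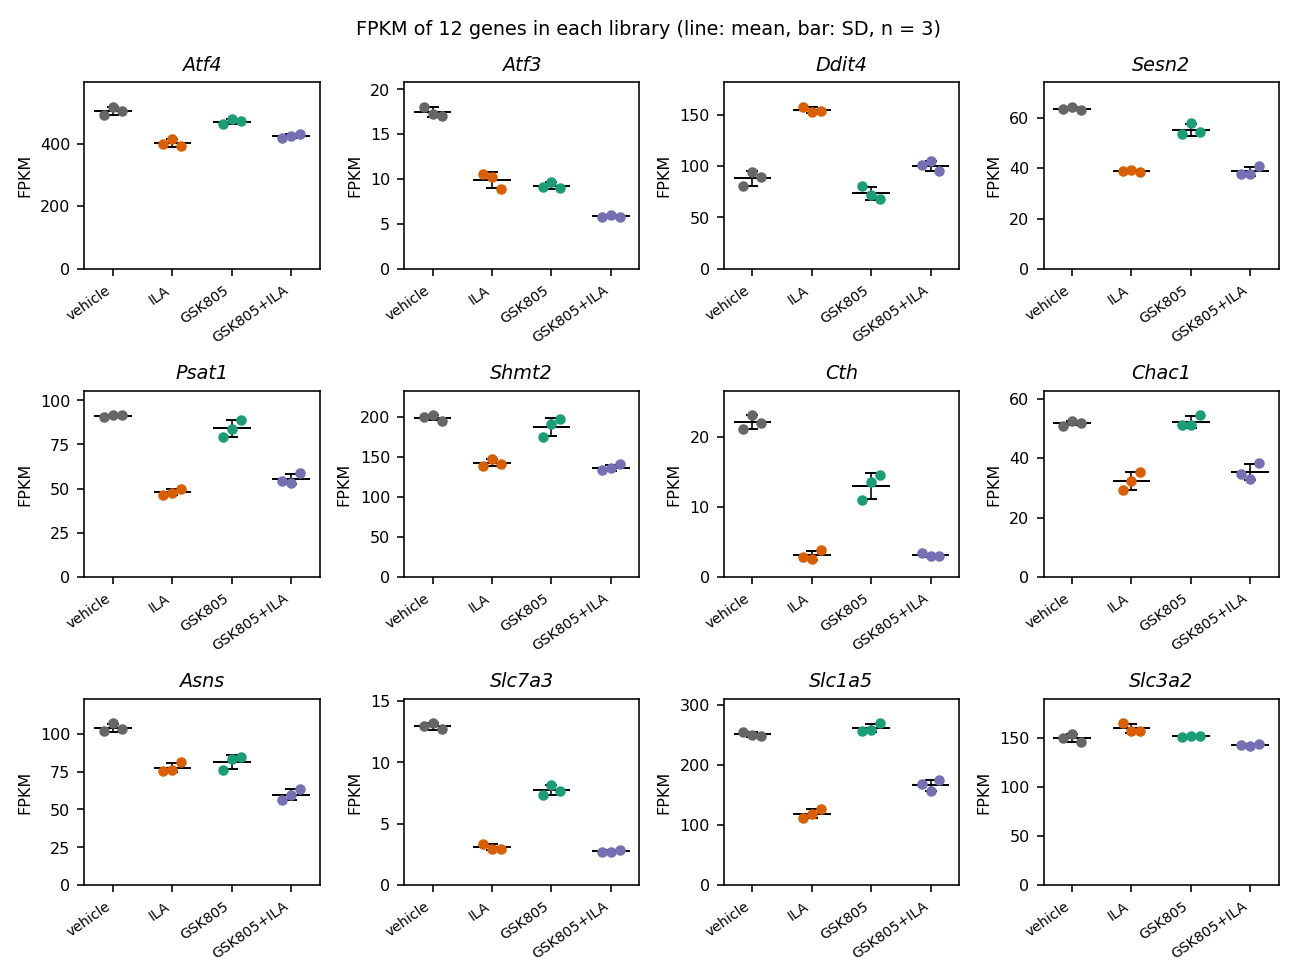
FPKM of 12 genes (y axes, from 0) in every library of the 4 groups; points are libraries, lines are means and bars are SD (n = 3). The ILA and combined groups lie below vehicle for Cth, Slc7a3, Slc1a5, Psat1, Sesn2, Shmt2 and Chac1, Ddit4 is highest with ILA, and Slc3a2 keeps within 142 to 165 FPKM.

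All 7 enzymes of serine synthesis and one-carbon metabolism were lower with ILA and with both compounds, and the reported fit called none with GSK805, where their log2 changes lay between -0.13 and -0.032. Psat1, Psph and Mthfd2 had an unadjusted p under 0.05 with GSK805, and both voom on recovered reads and the replicate block called Psat1 and Mthfd2 lower. After median centring 4 of the 7 were called lower with GSK805, namely Psat1, Psph, Shmt2 and Mthfd2 (adjusted p = 0.0197, 0.0216, 0.0292 and 0.00798). Single calls also appeared without GSK805 replicate 3 (Psat1 and Psph) and without GSK805+ILA replicate 3 (Mthfd2). Phgdh, Psat1 and Psph make serine from a glycolytic intermediate, Shmt1 and Shmt2 pass its carbon to folate in the cytosol and in mitochondria, and Mthfd2 and Mthfd1l carry the folate steps on in mitochondria. Their summed level was 662 ± 13.7 FPKM with vehicle, 476 ± 6.98 with ILA, 623 ± 41.3 with GSK805 and 469 ± 15.3 with both (SD, n = 3). Psat1 fell most of the 7 with ILA. It stood at 90.8, 91.8 and 91.5 FPKM with vehicle, 46.5, 47.7 and 49.8 with ILA, 79.4, 83.9 and 89 with GSK805 and 54.5, 53 and 58.7 with both. Its ILA libraries were the lowest, those with both compounds lay above them, and neither overlapped the others. The fall was 1.89-fold with ILA (log2 -0.92, SE 0.049, adjusted p = 4.54e-08) and 1.64-fold with both (log2 -0.71, adjusted p = 3.97e-07).

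Shmt2, the most abundant of the 7, stood at 199, 203 and 195 FPKM with vehicle, 139, 148 and 142 with ILA, 175, 191 and 197 with GSK805 and 134, 136 and 141 with both. Mthfd2 stood at 154, 158 and 155 FPKM with vehicle, 128, 129.97 and 129 with ILA, 139, 146 and 148 with GSK805 and 118, 119 and 128 with both. In both genes the libraries with ILA and with both compounds were below all those with vehicle. Shmt2 fell by 1.39-fold with ILA (adjusted p = 4e-06) and Mthfd2 by 1.21-fold (adjusted p = 7.63e-05). Shmt1 averaged 15.9 ± 0.287 FPKM with vehicle and 8.36 ± 0.775 with ILA, a log2 change of -0.86 (adjusted p = 4.07e-06). The ratio of Shmt2 to Shmt1 was 12.3, 12.8 and 12.5 in the vehicle libraries and 18.6, 16.7 and 16.2 in those with ILA, which did not overlap. It averaged 12.7 ± 0.812 with GSK805 and 13.6 ± 1.02 with both. An exact two-sided permutation test of 3 against 3 libraries gave p = 0.1 for ILA, the smallest it allows, and 0.2 after adjustment over the 6 such tests of 2 ratios. The log2 changes of Mthfd1l, Psph and Phgdh with ILA were -0.74, -0.46 and -0.35 (adjusted p = 4e-06, 2.44e-05 and 0.000659), and with both -0.72, -0.46 and -0.40.

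The cysteine and glutathione enzymes held the largest change of the 34. Cth encodes cystathionine gamma-lyase, which releases cysteine from cystathionine. It stood at 21.2, 23.1 and 21.9 FPKM with vehicle, 2.83, 2.63 and 3.82 with ILA, 10.9, 13.6 and 14.5 with GSK805 and 3.37, 2.94 and 2.97 with both. The ILA and combined libraries shared 1 low range, the GSK805 libraries lay between, and those with vehicle were highest. Cth fell by 5.67-fold with ILA (log2 -2.50, SE 0.11, adjusted p = 1.46e-08), by 1.65-fold with GSK805 (log2 -0.73, adjusted p = 0.00119) and by 5.64-fold with both (log2 -2.49, adjusted p = 2.26e-08). Chac1, which degrades glutathione and carries a core in its promoter, stood at 51, 52.5 and 52 FPKM with vehicle, 29.2, 32.4 and 35.4 with ILA, 51.1, 51.2 and 54.6 with GSK805 and 34.7, 32.9 and 38.2 with both. Its GSK805 libraries overlapped those with vehicle, and its ILA and combined libraries were below both. Chac1 fell by 1.59-fold with ILA (log2 -0.67, adjusted p = 7.01e-06) and by 1.46-fold with both (log2 -0.55, adjusted p = 4.63e-05), with a log2 change of 0.013 with GSK805 (-0.14 to 0.16). Cbs, which makes cystathionine for Cth, was not tested: it stayed between 0.0119 and 0.163 FPKM in all 12 libraries.

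All 3 enzymes of asparagine and proline synthesis were lower with ILA and with both compounds. Asns, asparagine synthetase and a classic ATF4 target, stood at 102, 107 and 103 FPKM with vehicle, 75.5, 76.2 and 81.4 with ILA, 76.4, 83.3 and 84.6 with GSK805 and 56, 59.7 and 63.4 with both. The ILA and GSK805 libraries overlapped each other below vehicle, and those with both compounds were lower than either. The fall of Asns was 1.33-fold with ILA (log2 -0.42, SE 0.054, adjusted p = 4.61e-05), 1.27-fold with GSK805 (log2 -0.35, adjusted p = 0.001) and 1.73-fold with both (log2 -0.79, adjusted p = 3.49e-07). Aldh18a1 and Pycr1 catalyse early and late steps from glutamate to proline. Aldh18a1 stood at 87.9, 84.8 and 85 FPKM with vehicle, 68.6, 70.8 and 74.8 with ILA, 86.6, 93.6 and 95.4 with GSK805 and 78.2, 73.4 and 76.9 with both. ILA and combined libraries were below all with vehicle, and its log2 changes were -0.26 with ILA (adjusted p = 0.000409) and -0.17 with both (adjusted p = 0.00779). The call of Aldh18a1 with both compounds was lost after quantile normalization (log2 -0.11, adjusted p = 0.078). Pycr1 averaged 5.71 ± 0.679 FPKM with vehicle and 3.11 ± 0.333 with ILA (log2 -0.71, adjusted p = 0.000591).

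Of the 10 transporters, 9 were tested. With ILA 7 were lower and 1 higher, with GSK805 2 were lower, and with both 6 were lower. Slc7a3 imports arginine and lysine. It stood at 12.9, 13.2 and 12.7 FPKM with vehicle, 3.36, 2.91 and 2.98 with ILA, 7.37, 8.2 and 7.71 with GSK805 and 2.68, 2.73 and 2.83 with both. No pair of the 4 groups overlapped, though the nearest libraries with ILA and with both were 2.91 and 2.83 FPKM. Slc7a3 fell by 3.42-fold with ILA (log2 -1.77, SE 0.058, adjusted p = 2.32e-09), by 1.59-fold with GSK805 (log2 -0.67, adjusted p = 3.32e-05) and by 3.72-fold with both (log2 -1.90, adjusted p = 2.73e-09). Slc1a5, the main glutamine importer of activated T cells, stood at 255, 251 and 248 FPKM with vehicle, 112, 118 and 127 with ILA, 257, 259 and 270.2 with GSK805 and 169, 157 and 174 with both. ILA libraries were lowest, combined libraries intermediate, and GSK805 libraries slightly above vehicle. Slc1a5 fell by 2.1-fold with ILA (log2 -1.07, SE 0.051, adjusted p = 1.76e-08) and by 1.51-fold with both (log2 -0.59, adjusted p = 2.4e-06), with a log2 change of 0.06 with GSK805 (-0.052 to 0.17).

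Slc7a5 and Slc3a2 encode the light and heavy chains of the leucine transporter LAT1. Slc7a5 stood at 241, 226 and 225 FPKM with vehicle, 177, 183 and 197 with ILA, 233, 247 and 256 with GSK805 and 207, 193 and 208 with both. Slc3a2 stood at 150.02, 154 and 146 FPKM with vehicle, 165, 157 and 157 with ILA, 151, 152 and 152 with GSK805 and 143, 142 and 144 with both. Slc7a5 fell with ILA (log2 -0.31, SE 0.052, adjusted p = 0.000337), whereas Slc3a2 was slightly higher (log2 0.09, SE 0.031, adjusted p = 0.0259), a direction that turned to -0.045 after median centring. That rise was called in 15 of 21 alternatives and was lost without vehicle replicate 1 or 3 or ILA replicate 1. The ratio of Slc7a5 to Slc3a2 was 1.61, 1.46 and 1.54 with vehicle and 1.07, 1.17 and 1.249 with ILA, without overlap. It averaged 1.62 ± 0.0758 with GSK805 and 1.42 ± 0.0523 with both. The exact permutation p was 0.1 for ILA and for both, the smallest possible, and 0.2 after adjustment over the 6 tests. Slc7a5 was also called lower with both compounds (log2 -0.19, adjusted p = 0.0113), but not after quantile normalization (log2 -0.02) or without replicate 2 of that group (log2 -0.15, adjusted p = 0.0502).

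Slc6a9, a glycine transporter, fell with ILA (log2 -0.62, adjusted p = 2.84e-05), with GSK805 (log2 -0.26, adjusted p = 0.0289) and with both (log2 -0.81, adjusted p = 4.34e-06). Slc38a2 and Slc38a1, which import glutamine and other small neutral amino acids with sodium, had log2 changes of -0.40 and -0.20 with ILA and -0.29 and -0.15 with both, and each of these 4 values was called. Slc7a1, an importer of arginine and lysine like Slc7a3, was at the threshold with ILA (log2 -0.14, adjusted p = 0.0426) and was called in 9 of 21 alternatives, with adjusted p = 0.166 without vehicle replicate 1 and 0.163 without ILA replicate 1. Slc1a4, an alanine, serine and cysteine transporter with a core in its promoter, was called in no comparison, and its log2 change with ILA was 0.014 (95% interval -0.12 to 0.15). Slc7a11, the cystine importer, was too low to test, at 0.7, 0.455 and 0.47 FPKM with vehicle, 0.223, 0.313 and 0.262 with ILA, 0.534, 0.44 and 0.39 with GSK805 and 0.212, 0.326 and 0.294 with both. All ILA and combined libraries of Slc7a11 were below all those of the other groups.

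Of the 2 other targets, Vldlr, a lipoprotein receptor, stood at 2.74, 2.67 and 1.93 FPKM with vehicle, 0.423, 0.496 and 0.534 with ILA, 1.49, 1.98 and 1.91 with GSK805 and 0.427, 0.522 and 0.419 with both. Stc2, a secreted glycoprotein, stood at 2.31, 2.78 and 2.67 FPKM with vehicle, 1.14, 1.35 and 1.16 with ILA, 1.17, 1.44 and 1.5 with GSK805 and 0.996, 0.697 and 0.995 with both. ILA and combined libraries were below all vehicle libraries for each. Vldlr fell by 2.31-fold with ILA (log2 -1.21, SE 0.12, adjusted p = 5.41e-06) and by 2.35-fold with both (adjusted p = 6.09e-06). Stc2 fell by 1.62-fold with ILA (adjusted p = 0.000131), 1.51-fold with GSK805 (adjusted p = 0.00201) and 1.89-fold with both (adjusted p = 1.93e-05).

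Falls of at least 2-fold on the log2(FPKM + 1) scale were few, and the genes past this line depended on the setting. In the alternatives the log2 change of Stc2 reached -1.08 with ILA and -1.54 with both. That of Psat1 reached -1.05 with ILA, and that of Slc1a5 with ILA ran from -1.21 to -0.99. The genes of the reported fit follow. With ILA they were Cth, Slc7a3, Vldlr and Slc1a5, 4 of 34, against 1.69% of all tested genes. With both compounds they were Cth, Slc7a3, Atf3 and Vldlr, 4 of 34, against 1.55%. Vldlr passed the 1 FPKM filter only through vehicle and GSK805 (means 2.45 and 1.8 FPKM). It averaged 0.485 FPKM with ILA and 0.456 with both, so its place in these counts rests on the groups where it was high. A filter at 5 FPKM left it out. With GSK805 there was none among the 34, against 0.4%, and Atf3 was nearest. The 13 falls called with GSK805 were 5 stress regulators (Atf4, Atf3, Atf5, Cebpg and Nupr1), all 3 brakes, Cth, Asns, Slc7a3, Slc6a9 and Stc2. This count depended on single libraries and settings: it was 7 without vehicle replicate 2, 8 without GSK805 replicate 1, 8 when only the 2 groups compared were fitted, 7 without the filter on low values and 20 after median centring. Atf3, Atf5, Sesn2, Cth, Asns, Slc7a3 and Stc2 were called lower in every alternative that tested them. Leaving out vehicle replicate 2 ended the calls of the other 6, and leaving out GSK805 replicate 1 those of the same genes other than Ddit4. Nupr1, with a mean of 0.82 FPKM with GSK805, was called in only 6 of 20 alternatives. Its call was also lost on leaving out any single library of the ILA or combined group.

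Reads from overlapping genes limit some of these values. How strand was handled is unknown here, and exons on the opposite strand share 1429 bases with Slc6a9 (Ccdc24), 452 with Psph (Cct6a), 312 with Cebpb (Tmem189), 184 with Shmt1 (Smcr8), 82 with Atf5 (Nup62 and Il4i1), 68 with Ddit3 (Mars) and 32 with Shmt2 (Ndufa4l2). Slc6a9 also shares 511 bases with Gm17114 on the opposite strand. On the same strand, Cebpg shares 73 exon bases with Gm44836, and Ddit3 105 with a second Ddit3 entry that is not in the files. For these 7 genes and Cebpg reads of the neighbour cannot be told apart. Phgdh has a processed pseudogene on chromosome 7 that was not analysed here, so its value is uncertain to that extent.

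The change with ILA was also measured in cells that had GSK805, by comparing both compounds with GSK805 alone. This comparison shares no library with that of ILA against vehicle. In it 26 of the 34 genes were lower and 1, Ddit4, was higher, against 17.5% and 22% of all tested genes. Of the 26 genes lower with ILA without GSK805, 25 were lower in its presence too, which is 96.2% of either list. Ddit3 was called lower without GSK805 and not with it, and Slc3a2 with it and not without it, where the Slc3a2 call held in 9 of 21 alternatives and was lost without any 1 of the 6 libraries compared. The call of Stc2 with GSK805 present was lost without GSK805 replicate 2 or 3 or GSK805+ILA replicate 2. Among all genes, 1964 were lower in both comparisons, 60.7% of the 3236 lower without GSK805 and 83.1% of the 2363 lower with it. Across the 34 genes the 2 sets of log2 changes had a Pearson r of 0.97 and a Spearman rho of 0.92, beside 0.79 and 0.77 across all 13511 genes. These describe genes measured in the same libraries, which are not independent replicates.

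**Figure D4:**
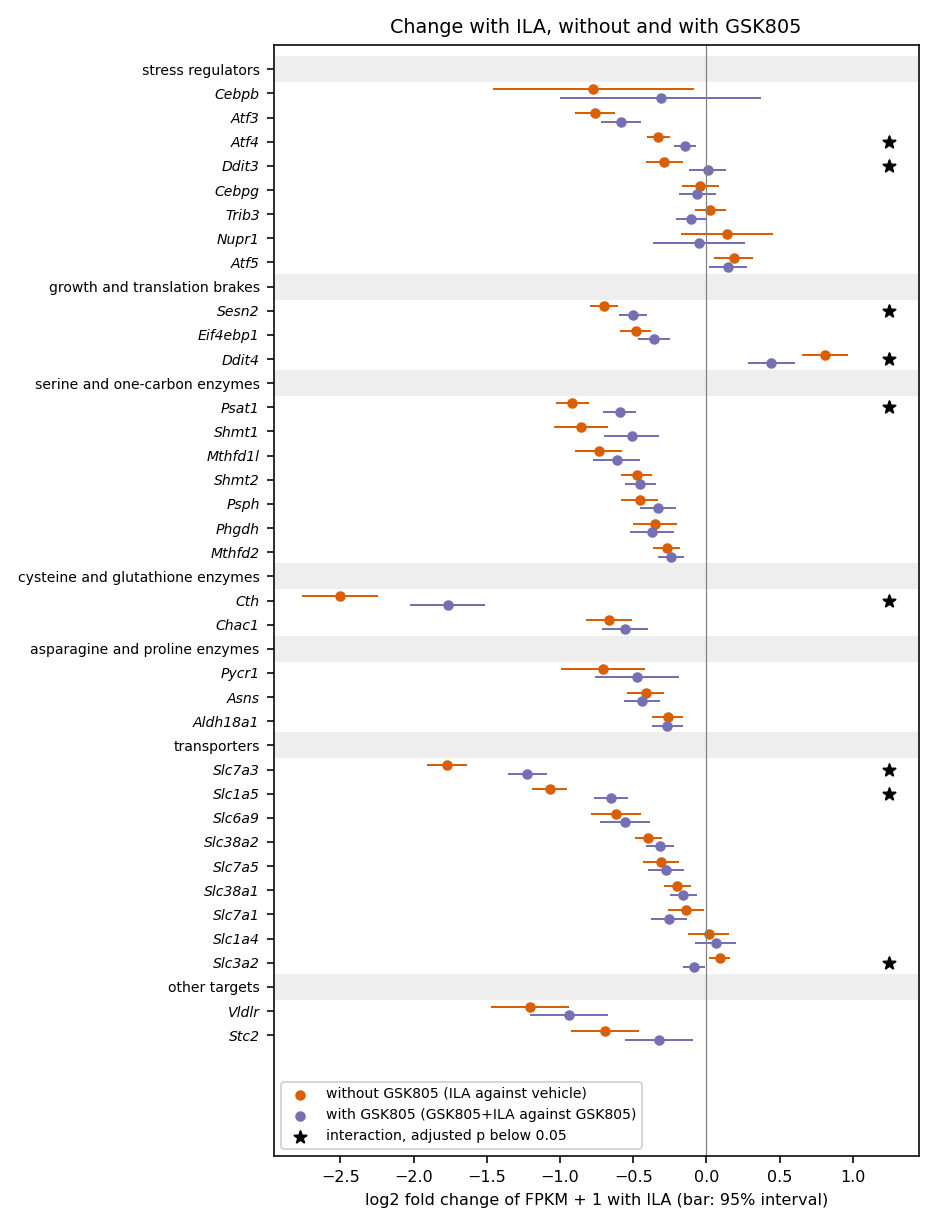
Log2 fold changes with ILA (x axis) for the 34 tested genes in the absence (ILA against vehicle) and presence (both compounds against GSK805) of GSK805, with 95% intervals; stars mark the 9 genes with a called interaction. The points of the 7 serine and one-carbon enzymes lie left of 0 in both, and those of Cth, Slc7a3, Slc1a5 and Psat1 lie nearer to 0 with GSK805.

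The size of the change with ILA differed for 9 of the 34 genes, as tested by the interaction, which subtracts the log2 change without GSK805 from that with it. In 7 genes this difference was above 0 and in 2 below it, against 5.15% and 8.7% of all tested genes. Cth fell with ILA by log2 -2.50 without GSK805 and -1.77 with it, a difference of 0.74 (SE 0.16, adjusted p = 0.0141). Slc7a3 went from -1.77 to -1.22, a difference of 0.55 (SE 0.082, adjusted p = 0.00253). In both genes GSK805 alone had lowered the level, and no difference between both compounds and ILA alone was called: the log2 difference between both compounds and ILA was 0.0093 for Cth (-0.24 to 0.26) and -0.12 for Slc7a3 (-0.25 to 0.0068), whose combined libraries all lay below those with ILA. Slc1a5 went from -1.07 to -0.65, a difference of 0.42 (SE 0.072, adjusted p = 0.00459), and Psat1 from -0.92 to -0.59, a difference of 0.32 (SE 0.069, adjusted p = 0.0126). Unlike the former pair, these ended higher with both compounds than with ILA alone (log2 0.48, adjusted p = 0.000159, and log2 0.20, adjusted p = 0.0151). The interactions of these 4 genes were called in every alternative; the call of Psat1 between both compounds and ILA alone was lost without ILA replicate 1 (adjusted p = 0.0582) and without replicate 3 with both compounds (0.0606).

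The other 5 interactions were smaller and not called in every alternative. They were 0.18 for Atf4, 0.30 for Ddit3, 0.20 for Sesn2, -0.37 for Ddit4 and -0.18 for Slc3a2, with adjusted p between 0.0231 and 0.0398. Ddit4 rose less with ILA in the presence of GSK805 (log2 0.44) than without it (0.81). That of Atf4 was -0.10 after quantile normalization (adjusted p = 0.233). The interaction was called in 14 of the 20 alternatives that could give one for Atf4, 12 for Ddit3, 7 for Sesn2, 10 for Ddit4 and 14 for Slc3a2. Without ILA replicate 1 all 5 calls were lost.

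Set against ILA alone, both compounds gave 8 lower and 2 higher genes among the 34, against 8.64% and 9.92% of all tested genes. The 8 lower genes were Atf3, Atf5, Cebpg, Nupr1, Trib3, Ddit4, Asns and Slc3a2, and the 2 higher ones were Psat1 and Slc1a5. By role, 5 of the 8 stress regulators were lower when GSK805 was added to ILA. The 3 uncalled regulators, Atf4, Ddit3 and Cebpb, had log2 changes above 0 (0.079, 0.15 and 0.63, adjusted p = 0.113, 0.0762 and 0.185). Of the 12 tested enzymes 1 was lower, near the 8.64% of all tested genes. Asns fell further by log2 -0.38 (adjusted p = 0.000952) and Atf3 by -0.67 (adjusted p = 5.83e-05). Of the 13 genes lower with GSK805 in the absence of ILA, 6 were lower in its presence, namely Asns, Atf3, Atf5, Cebpg, Ddit4 and Nupr1. The call of Cebpg against ILA was lost without GSK805+ILA replicate 2. These 2 comparisons share no library, and the overlap is 46.2% of the first list and 75% of the second. Among all genes, 348 were lower in both, 36.4% of 957 and 29.8% of 1167.

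Further genes of the same pathways, listed by function but with earlier results of these data known, did not all follow. Their counts stand beside 24% of all tested genes lower and 33.9% higher with ILA, 7.08% and 15.7% with GSK805, and 20.3% and 31.8% with both. Of 14 genes for eIF2alpha, its kinases, phosphatases and exchange factor, 8 were lower and 1 higher with ILA, and 3 and 1 with both. Ppp1r15a, the stress-induced phosphatase subunit that ends the response, averaged 144 ± 10.1 FPKM with vehicle, 70.4 ± 4.76 with ILA, 104 ± 5.25 with GSK805 and 74.5 ± 2.23 with both (SD, n = 3). Its log2 change was -0.47 with GSK805 (adjusted p = 0.000441) and -0.94 with both (adjusted p = 2.94e-07). Its interaction was 0.55 (adjusted p = 0.00334). Eif2ak3, the kinase of endoplasmic reticulum stress, and Eif2s1, which encodes eIF2alpha, fell with both by log2 -0.41 (adjusted p = 0.000154) and -0.38 (adjusted p = 4.51e-05). With GSK805 their log2 changes were -0.053 and -0.042, neither called. Of 12 tested further amino acid enzymes, 7 were lower and none higher with ILA, and the same counts held with both. Got1, Bcat1 and Oat, which handle aspartate, branched-chain amino acids and ornithine, had log2 changes with both of -1.01 (adjusted p = 1.66e-06), -0.96 (adjusted p = 6.15e-07) and -0.88 (adjusted p = 7.59e-08). Got1 and Bcat1 were also called lower with GSK805, by log2 -0.37 (adjusted p = 0.00867) and -0.22 (adjusted p = 0.0446). Of 8 further ATF4-linked stress genes tested, 6 were lower and 2 higher in each of these 2 comparisons, and Vegfa, Sqstm1 and Ero1l fell with both by log2 -0.75, -0.69 and -0.67 (adjusted p = 5.43e-06, 9.42e-07 and 2.26e-07).

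Genes of amino acid sensing by mTORC1 moved the other way. Of 11 tested, 7 were higher with ILA, 5 with GSK805 and 8 with both, and none was lower in these 3 comparisons. Sesn3, a relative of Sesn2, averaged 14.1 ± 0.603 FPKM with vehicle, 39 ± 0.926 with ILA and 28.8 ± 1.1 with both, a log2 change with ILA of 1.41 (adjusted p = 3.2e-09) and with both of 0.98 (adjusted p = 5.31e-08). Sesn1 and Nprl3, a subunit of a complex that restrains mTORC1, rose with both by log2 0.40 (adjusted p = 0.00663) and 0.39 (adjusted p = 0.000175). Of 8 glutathione enzymes, 4 were higher and 1 lower with ILA, and 3 higher and none lower with both, led by the reductase Gsr (log2 0.82, adjusted p = 4.88e-06) and the lipid peroxidase Gpx4 (0.58, adjusted p = 0.00025). Of 10 tested further folate and methionine enzymes, 2 were higher and 3 lower with ILA, and 4 higher and none lower with both, among them Gcsh, Mthfd1 and Ahcy (log2 0.29, 0.22 and 0.15). The 8 further amino acid transporters tested gave 5 higher and 3 lower with ILA and again with both, with Slc36a1 and Slc36a4 at log2 0.82 and 0.35 and Slc38a10 at -0.31 with both. With GSK805 alone the counts of higher and lower genes were 0 and 1 for eIF2alpha, 0 and 4 for the amino acid enzymes, 0 and 4 for the ATF4-linked genes, 2 and 0 for glutathione, 3 and 0 for folate and methionine, and 1 and 0 for the transporters.

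**Figure D5:**
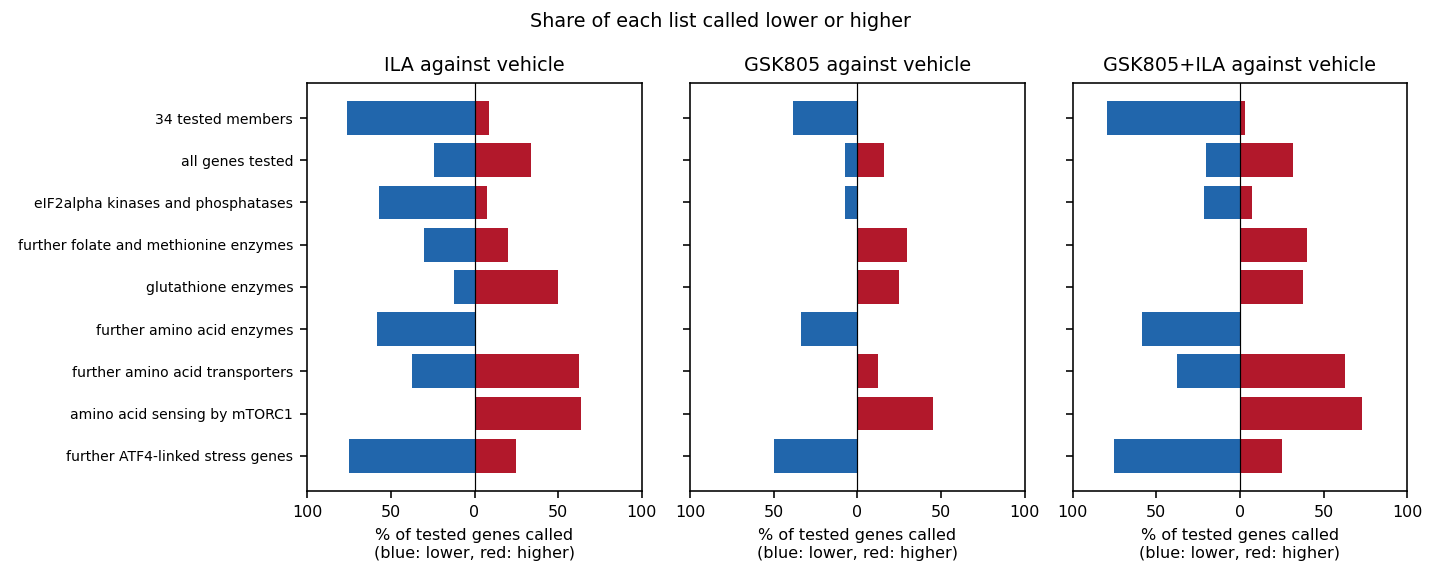
Share of tested genes called lower (blue, to the left) or higher (red, to the right), in percent, for the 34 genes, for all 13511 tested genes and for 7 further lists, in the 3 comparisons with vehicle. The bars of the further amino acid enzymes point only left in the 3 panels, those of the 34 genes mostly left, with 3 genes to the right with ILA and 1 with both, and those of amino acid sensing by mTORC1 point right.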

How the data were processed

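RNA of 12 libraries was measured by RNA sequencing, 3 in each of 4 groups taken from the sample titles. The authors deposited FPKM per gene, per the file headers. The submitters' processing notes name FastQC 0.11.2, Bowtie and the mm10 build. Not given in the sources used here are Bowtie's version, the counting program, its annotation and how strand was treated, which decide how overlapping genes share reads. Gene lengths and symbols came from GENCODE vM21, and 98.61% to 98.75% of values in each library were within 0.1 of a whole read at 1 depth, 17805444 to 23443644 reads.

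Log2(FPKM + 1) of the 13511 genes whose mean reached 1 FPKM in some group was fitted with limma 3.58.1 in R 4.3.3, with 1 mean per group over all 12 libraries, a variance trend and robust moderation. Adjustment was Benjamini-Hochberg over all tested genes, with calls below 0.05. Replicates are biological by their titles but name no animals or cultures, so the p-values cover only the spread between libraries, which may be technical. Across same-numbered libraries of different groups, 18 correlations of deviations from group means ran from -0.082 to 0.078, so the numbers were not used as pairs. The script was tested on simulated data. Alternatives were fits without trend and robust moderation, quantile normalization, median centring, a 5 FPKM filter or none, a pseudocount of 0.1, a replicate block, only the groups compared, voom on recovered reads, and leaving out each library.

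The genes, lists and tests were chosen with earlier results of these data known. Values in every library are given for Atf4, for genes called with an absolute log2 change of at least 1 against vehicle and at least 5 FPKM, for called interactions and for the 2 highest genes of each role. Each further list is named by up to 3 called genes with the largest change with both compounds and at least 5 FPKM. Vldlr, Stc2 and Slc7a11 values were given beside these by role. A further marker of the CD4 T and Th17 list is not reported here and is left out of its sum. Promoters were RefSeq sequences of GRCm38.p6. Figures were drawn with matplotlib 3.10.9.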

Additional observations from a re-analysis of the deposited data

Results flagged for a closer look

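The change with ILA differed between cultures without and with GSK805, by a test of the difference itself, for 9 of the 34 tested genes, against 13.8% of all tested genes. In 7 the difference was above 0 and in 2 below it, against 5.15% and 8.7% of all tested genes. The difference in log2 change was 0.74 for Cth, 0.55 for Slc7a3, 0.42 for Slc1a5, 0.32 for Psat1, 0.30 for Ddit3, 0.20 for Sesn2 and 0.18 for Atf4, each of which fell less or did not fall with ILA in the presence of GSK805. It was -0.37 for Ddit4, which rose less, and -0.18 for Slc3a2, which was slightly higher with ILA alone and slightly lower when GSK805 was present. The interactions of Cth, Slc7a3, Slc1a5 and Psat1 were called in all 20 alternatives that gave an interaction, and the other 5 were not. Groups of 3 libraries were too small for a test of single outlying values.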

How the results depend on the processing

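Over all alternatives, 25 of 29 calls of the 34 genes with ILA were made in every one, 7 of 13 with GSK805, 24 of 28 with both, 25 of 27 for both against GSK805, 8 of 10 for both against ILA and 4 of 9 interactions. For single genes, 4022 values kept their side of the threshold, 73 of them with the other sign and uncalled in both fits. In 137 cases a call was lost, in 69 one was gained, and in 4 a value called in either fit turned its direction; the causes were not tested. The 4 were Slc3a2 with ILA after median centring (-0.045, adjusted p = 0.258), and Atf4 after quantile normalization with GSK805 (0.20), with both (0.018) and in the interaction (-0.10). Genes lower with ILA numbered 24 to 28, lower with both 24 to 31 and lower for both against GSK805 24 to 27. Higher genes with ILA numbered 1 after median centring. With GSK805, higher genes numbered 3 after quantile normalization and 1 with a filter at 5 FPKM or voom, and lower genes 20 after median centring, 7 without a filter and 8 with only the groups compared. With both, higher genes numbered 0 without trend and robust moderation, after median centring, without a filter and with only the groups compared. For both against GSK805, higher genes numbered 2 after quantile normalization, at 5 FPKM, with the replicate block and with voom. For both against ILA they numbered 6 with voom. Interactions above 0 numbered 4 without trend and robust moderation, and those below 0 numbered 1 there, 0 after median centring and 1 without a filter. Leaving out 1 library gave 1 to 3 higher and 25 to 27 lower genes with ILA, 0 to 1 and 7 to 15 with GSK805, 0 to 1 and 26 to 28 with both, 1 to 2 and 24 to 26 for both against GSK805, 1 to 3 and 7 to 8 for both against ILA, and 4 to 7 and 0 to 2 for the interaction. The replicate block gave 25 lower genes with ILA, 14 with GSK805 and 29 with both; the replicate numbers showed no pairing, and no library was tied to an animal. With voom on recovered reads, 4625 of all 13083 genes tested were higher and 3221 lower with ILA, 2494 and 1141 with GSK805 and 4414 and 2804 with both. Of the interactions called among all genes, 37.2% were above 0 as deposited, 46% after quantile normalization and 63.2% after median centring, and of the calls for both against GSK805, 55.7%, 46.8% and 41.6% were higher. At this depth Cbs and Slc7a11 lay below the filter, and 3 libraries a group limit the precision of each value.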

Other observations

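Summed over each role, the transporters were the largest group by level, with 910.02 ± 21.5 FPKM with vehicle, 689 ± 19.3 with ILA, 939 ± 23.6 with GSK805 and 745 ± 22.4 with both (SD, n = 3), and Slc1a5 and Slc7a5 were the highest of them. The stress regulators summed to 849.9 ± 19.6, 714 ± 15.8, 776 ± 25.1 and 720.1 ± 20.3 FPKM, most of it Atf4. The brakes summed to 263 ± 10.1, 273 ± 2.89, 228 ± 5.3 and 216 ± 1.01 FPKM, since with ILA the level of Ddit4 was higher and those of Sesn2 and Eif4ebp1 were lower. Among the tested genes with vehicle, Slc1a5 ranked 157th by level, Slc7a5 171st and Shmt2 197th, while Vldlr ranked 9936th and Nupr1 11351st.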
